A study of Mus musculus with 594 samples.

Results

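LBH-589, also known as panobinostat, is a hydroxamic acid that inhibits the zinc-dependent histone deacetylases. It was applied at 0.015 µM to 2 mouse islet tumour cell lines in a series of 594 expression arrays on small molecules that act on chromatin. All 18 arrays labelled LBH-589 were taken, 3 for each of 6 combinations of cell line and time, and each set of 3 was compared with the arrays labelled DMSO-control of the same line and time. The lines are alpha-TC1, derived from a glucagon-producing tumour, and beta-TC3, derived from an insulin-producing tumour, both from mice that carried the SV40 T antigen as a transgene, driven by the glucagon and the insulin gene promoter in turn. RNA was taken after 1, 6 and 24 h of exposure. The DMSO group, which received the vehicle in which every compound was dissolved, held 14 arrays at each time in alpha-TC1 and 12, 10 and 12 arrays at 1, 6 and 24 h in beta-TC3, 76 in all. Each set of LBH-589 arrays had 1 array in each of the labelled batches 4, 5 and 6. Whether replicates were separate cultures is not stated in the labels, so the p-values below measure only the spread between arrays. That spread was estimated over the arrays of every compound and DMSO of the same line and time, not from the LBH-589 and DMSO arrays alone. The small number of LBH-589 arrays limits the precision. Each line is a single tumour line kept in culture and stands in for its islet cell type only in part.

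Histone deacetylases remove acetyl groups from lysines of histones and of many other proteins. The class I enzymes work inside large assemblies such as the SIN3, NuRD and CoREST complexes, and the hydroxamic acids bind at the zinc site of enzymes from classes I, II and IV. Blocking them raises histone acetylation within hours, and large numbers of genes then rise or fall. Pancreatic alpha cells secrete glucagon and beta cells secrete insulin. Both depend on the transcription factors NKX2-2, PAX6, ISL1 and NEUROD1, whereas PDX1 and NKX6-1 mark beta cells and IRX1, IRX2 and POU3F4 mark alpha cells.

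Levels are given as log2 of the deposited intensity, and a difference of 1 on that scale is 2-fold. Expression was measured for 11807 genes with 1 probe set each, and the array medians lay between 4.38 and 4.6. The labelled lines matched their hormone genes: in DMSO at 6 h the glucagon gene Gcg lay between 12.21 and 12.67 in alpha-TC1, and the insulin gene Ins2 between 13.19 and 13.49 in beta-TC3. Ins2 in alpha-TC1 lay between 3.31 and 7.20, whereas Gcg in beta-TC3 ranged from 7.40 to 10.67 and so was far from absent there. Of 15 measured markers of acinar, ductal, stromal, endothelial and immune cells, none was called in beta-TC3 at 6 or 24 h. In alpha-TC1 1 was called higher and 1 lower at 6 h, and 2 higher and 1 lower at 24 h. At 6 h these were the macrophage marker Cd68 (0.91 higher, and not called without replicate 3) and the acinar elastase gene Cela1 (−1.21). Outside these 15 markers, the immune complement gene C1qa was among the largest called falls in beta-TC3 at 24 h. Without the batch term C1qa was not called there (−1.01, limma adjusted p 0.172). Its call in beta-TC3 at 6 h was also lost without that term (−0.31, limma adjusted p 0.607). The part of these genes in the other results was not tested. One array stood apart: the first LBH-589 replicate in alpha-TC1 at 1 h, whose gene-by-gene differences from the DMSO arrays of its own batch had an SD of 0.346, against 0.175 and 0.173 for the other replicates.

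LBH-589 changed few genes at 1 h, the most at 6 h and fewer at 24 h. With limma, batch as a term and Benjamini-Hochberg adjustment over all genes, a gene was called at an adjusted p under 0.05. At 6 h 3611 genes were called in alpha-TC1 (30.6%), 2000 higher and 1611 lower, and 3501 in beta-TC3 (29.7%), 1919 higher and 1582 lower. At 24 h the counts were 1776 in alpha-TC1 (15%), 884 higher and 892 lower, and 745 in beta-TC3 (6.31%), 463 higher and 282 lower. The share called higher was 16.9% and lower 13.6% in alpha-TC1 at 6 h, 16.3% and 13.4% in beta-TC3 at 6 h, 7.49% and 7.55% in alpha-TC1 at 24 h, and 3.92% and 2.39% in beta-TC3 at 24 h. Counts of genes from a list, given below, are to be read against these shares over all genes. All 3 LBH-589 arrays lay above all DMSO arrays for 10.3% of genes in alpha-TC1 and 9.73% in beta-TC3 at 6 h and for 4.68% and 1.69% at 24 h. They lay below them for 7.76% and 8.94% at 6 h and for 3.92% and 0.593% at 24 h. At 1 h no gene was called in alpha-TC1 (0%), where 400 had an unadjusted p under 0.05, and 2 in beta-TC3 (0.0169%), where 265 did. The arrays at 1 h lay above all DMSO arrays for 0.178% and 0.11% of genes and below for 0.152% and 0.186%. At least 2-fold changes at 6 h were 314 higher and 200 lower in alpha-TC1 and 224 and 184 in beta-TC3, and at 24 h 145 and 43, and 47 and 5. Centring each array on its median shifted the median of all genes in alpha-TC1 at 6 h by −0.112 and turned that split to 1490 higher and 3111 lower. It turned the beta-TC3 split at 24 h to 410 higher and 397 lower. The beta-TC3 count at 24 h was 415 without the batch term, 333 with the LBH-589 and DMSO arrays alone and 322 without replicate 1. The alpha-TC1 count at 24 h was 990 without replicate 3.

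**Figure D1:**
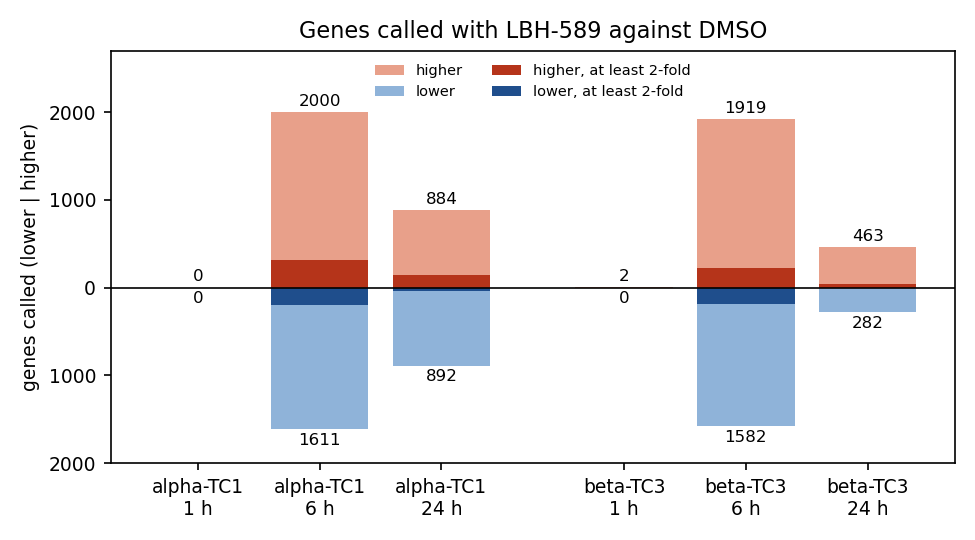
Numbers of genes called higher (upward bars) and lower (downward bars) with LBH-589 than with DMSO at 1, 6 and 24 h in each line, with the part that passed 2-fold in the darker shade. Both lines have their tallest bars at 6 h, 2000 and 1919 genes higher, and at 24 h the beta-TC3 bars (463 higher, 282 lower) are shorter than the alpha-TC1 bars (884 and 892).

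Promoters of genes that moved at least 2-fold in both lines at 6 h are shown first. There were 93 such genes higher in both lines and 76 lower in both. They are a part, chosen by size of change, of the 1176 genes called higher and 899 called lower in both lines. Each sequence below runs 5′ to 3′ on the gene's own strand, from 250 bases before to 50 after the RefSeq start, in GRCm38.p6. Capitals mark matches on either strand to 5 motifs, the GC box GGGCGG, the CCAAT box CCAAT, the TATA box TATAAA, the AP-1 site TGANTCA and the E-box CACGTG. The first 4 genes were higher in both lines: Rsad2 (chr12:26456403-26456702, minus strand), an interferon-inducible antiviral enzyme, Rab40b (chr11:121388202-121388501, minus strand), a small GTPase of ubiquitin ligase complexes, Ddah2 (chr17:35058785-35059084, plus strand), which clears an inhibitor of nitric oxide synthase, and Metrn (chr17:25796996-25797295, minus strand), a secreted neurotrophic factor. The last 2 were lower in both: Qrsl1 (chr10:43901687-43901986, minus strand), a subunit of the mitochondrial amidotransferase that makes glutaminyl tRNA, and D17H6S56E-5 (chr17:35000697-35000996, minus strand).
Rsad2: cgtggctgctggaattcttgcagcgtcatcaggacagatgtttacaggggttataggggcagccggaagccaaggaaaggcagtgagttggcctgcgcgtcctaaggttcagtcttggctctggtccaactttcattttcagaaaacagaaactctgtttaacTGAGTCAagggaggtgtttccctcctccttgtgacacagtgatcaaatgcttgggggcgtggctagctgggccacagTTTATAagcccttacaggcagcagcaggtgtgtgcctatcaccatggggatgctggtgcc
Rab40b: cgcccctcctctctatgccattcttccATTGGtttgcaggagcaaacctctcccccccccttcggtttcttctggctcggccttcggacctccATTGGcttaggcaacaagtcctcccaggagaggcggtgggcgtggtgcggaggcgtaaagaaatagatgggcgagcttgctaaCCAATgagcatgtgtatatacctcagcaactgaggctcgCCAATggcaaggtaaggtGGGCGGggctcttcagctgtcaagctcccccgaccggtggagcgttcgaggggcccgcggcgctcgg
Ddah2: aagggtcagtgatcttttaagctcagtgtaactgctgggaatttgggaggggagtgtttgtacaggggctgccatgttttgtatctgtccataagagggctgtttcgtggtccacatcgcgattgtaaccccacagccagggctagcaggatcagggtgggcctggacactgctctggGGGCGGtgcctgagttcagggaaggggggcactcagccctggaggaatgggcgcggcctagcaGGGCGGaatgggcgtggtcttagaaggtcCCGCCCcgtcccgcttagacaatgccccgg
Metrn: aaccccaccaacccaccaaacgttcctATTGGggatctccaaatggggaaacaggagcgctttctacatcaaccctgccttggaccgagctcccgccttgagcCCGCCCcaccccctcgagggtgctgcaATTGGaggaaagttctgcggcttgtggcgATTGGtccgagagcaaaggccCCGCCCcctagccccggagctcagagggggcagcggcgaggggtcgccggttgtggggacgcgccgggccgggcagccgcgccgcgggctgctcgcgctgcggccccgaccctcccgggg
Qrsl1: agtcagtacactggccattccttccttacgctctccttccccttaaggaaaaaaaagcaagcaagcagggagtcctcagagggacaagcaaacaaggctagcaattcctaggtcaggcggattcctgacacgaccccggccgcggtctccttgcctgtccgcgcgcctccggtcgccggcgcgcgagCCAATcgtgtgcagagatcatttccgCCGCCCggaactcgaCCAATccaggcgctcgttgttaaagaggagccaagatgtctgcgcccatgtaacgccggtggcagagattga
D17H6S56E-5: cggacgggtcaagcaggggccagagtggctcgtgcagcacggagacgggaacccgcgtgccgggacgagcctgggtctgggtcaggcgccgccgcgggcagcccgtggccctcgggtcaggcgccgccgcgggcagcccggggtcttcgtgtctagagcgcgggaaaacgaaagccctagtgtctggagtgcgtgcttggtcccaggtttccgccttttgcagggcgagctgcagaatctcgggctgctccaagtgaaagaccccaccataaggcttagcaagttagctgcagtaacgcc
Rab40b and Metrn carry several CCAAT boxes, 4 and 3, beside 1 and 2 GC boxes, Ddah2 carries 3 GC boxes, and Rsad2 has an AP-1 match and a TATA match but no GC box. Qrsl1 has 1 GC box and 2 CCAAT boxes, and D17H6S56E-5 holds none of the 5 motifs.

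Across promoters the letters differed between the directions. Of the 7565 tested genes with 1 promoter in the RefSeq table, 57.1% held a GC box, and of the 3841 of these at or above the median DMSO level 70.5% did. Among the genes higher at least 2-fold at 6 h the share was 81.1% in alpha-TC1 (163 of 201), 86.0% in beta-TC3 (123 of 143) and 90.2% for those higher in both lines (55 of 61). Among genes lower at least 2-fold the shares were 61.3%, 56.6% and 63.5%. The share in the genes higher at 24 h was 64.5% in alpha-TC1 and 70.0% in beta-TC3. The median GC content was 59.0% over all promoters and 64.3% for the genes higher in both lines. The CCAAT box was in 52.5% of the promoters higher in both lines and in 39.1% of all. These shares are descriptions of letters in a 300-base window, and the sets differ in GC content and level as given.

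At 6 h in alpha-TC1 the genes with the largest rises were Rras, Rsad2 and Gsta4, and the largest fall was in Kcnk2. Rras, a RAS-family GTPase, measured 6.33, 6.68 and 6.42 in the LBH-589 arrays against 2.78 to 3.30 in DMSO (median 3.07). All 3 treated arrays lay far above every control. The difference was 3.39 (SE 0.129, limma adjusted p 2.05e-34). Levels near 3 lie close to the low end of the scale, where 5% of the gene values over all arrays were under 2.72, so no fold is given against them. Rsad2 measured 7.78, 7.87 and 7.54 against 4.12 to 5.05 (median 4.63), a difference of 3.06 (SE 0.193, limma adjusted p 5.16e-22), and the groups did not overlap. Its 3 probe sets all rose in alpha-TC1 at 6 h, the other 2 by 1.70 and 2.02. The same direction held for Rab40b (2.89), for the elongation factor partner Eaf2 (2.87; LBH-589 5.99, 6.19 and 5.91, DMSO 2.77 to 3.57) and for the scaffold protein gene Akap12 (2.54). Kcnk2, the potassium channel TREK-1, fell from a DMSO range of 7.70 to 8.55 (median 8.04) to 5.27, 4.13 and 4.91, a difference of −3.43 (SE 0.17, limma adjusted p 1.18e-27). The amino acid transporter gene Slc38a4 fell by 2.61 on the log2 scale, from a DMSO range of 6.71 to 8.41 (median 7.85) to 5.16, 4.52 and 5.34. Qrsl1 fell by 2.46 and D17H6S56E-5 by 2.38.

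At 6 h in beta-TC3 the largest rises were in Insl6 and Ptger4, and the largest falls were in Rbpms, Sdcbp2 and Tk1. Insl6, a relaxin-family peptide gene, measured 6.94, 7.04 and 6.83 against 3.65 to 4.33 in DMSO (median 4.02). The treated arrays lay within 0.21 of each other and above every control, with a difference of 2.90 (SE 0.157, limma adjusted p 1.08e-24). Ptger4, a prostaglandin E receptor, measured 5.95, 5.85 and 6.68 against 3.27 to 3.93 (median 3.79), a difference of 2.53 (SE 0.192, limma adjusted p 8.07e-18). Rras rose in this line too, from a DMSO median of 3.22 to 5.09, 5.19 and 6.01 (2.19), as did Ddah2 (2.16), the plasminogen activator gene Plat (2.09) and Eaf2 (2.03). The RNA-binding protein gene Rbpms fell by 2.48, from 6.28 to 6.93 in DMSO (median 6.56) to 4.18, 3.89 and 4.31, with no overlap. Galr1, a galanin receptor, fell by 2.31, and the syntenin relative Sdcbp2 by 2.42.

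**Figure D2:**
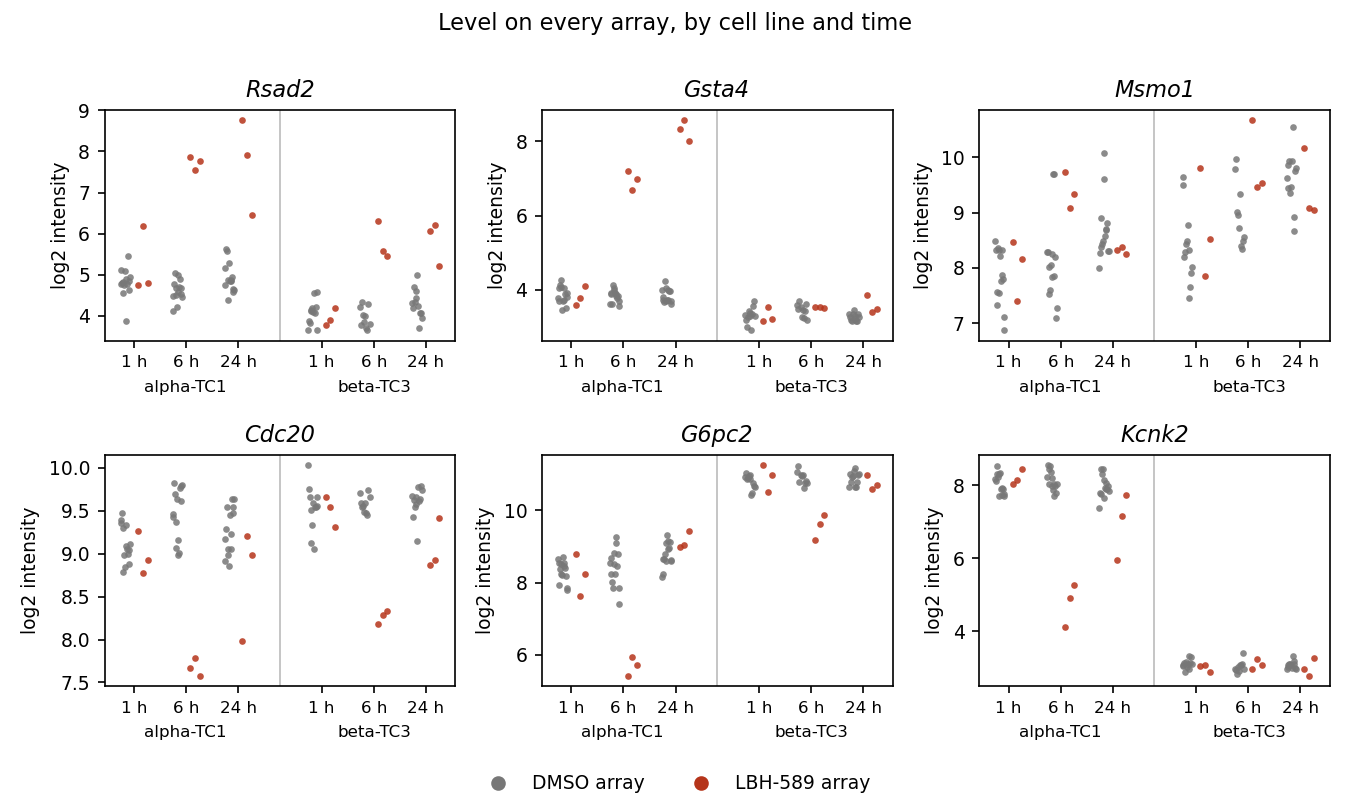
Levels (log2 intensity, vertical axis) of Rsad2, Gsta4, Msmo1, Cdc20, G6pc2 and Kcnk2 in every LBH-589 array (3 per group) and every DMSO array (10 to 14 per group) at 1, 6 and 24 h in both lines,. Each point is 1 array, grey for DMSO and red for LBH-589. Rsad2 stands above DMSO at 6 and 24 h in both lines and Gsta4 in alpha-TC1, while Cdc20 and G6pc2 lie below all DMSO arrays at 6 h. At 24 h G6pc2 lies mostly among the DMSO arrays. Cdc20 still lies below all of them in the arrays at 7.98 in alpha-TC1 and at 8.87 and 8.93 in beta-TC3.

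Among the targets of the compound and their partners, Hdac1 rose at 6 h and the subunits of deacetylase complexes moved in both directions. Hdac1, a class I deacetylase, measured 9.37, 9.44 and 9.34 in alpha-TC1 at 6 h against 8.36 to 8.66 in DMSO (median 8.50). The treated arrays were above all controls, by 0.90 (SE 0.0829, limma adjusted p 1.13e-14). In beta-TC3 they measured 9.38, 9.31 and 9.56 against 8.77 to 9.15, a difference of 0.55 (SE 0.0774, limma adjusted p 1.77e-08). At 24 h the differences were 0.40 (limma adjusted p 0.00169; 0.28 and adjusted p 0.102 without replicate 1) and 0.20 (adjusted p 0.0883). The other measured class I gene was not called in alpha-TC1 at 6 h (0.09). Of 5 measured class II and IV genes 3 rose and 1 fell there (median 0.32, lowest −0.39). The class IV gene Hdac11 rose by 0.60 in alpha-TC1 and 1.14 in beta-TC3 at 6 h, though in both lines the LBH-589 and DMSO arrays overlapped. Of 20 measured subunits of deacetylase complexes, 1 rose and 6 fell in alpha-TC1 at 6 h (median −0.13), and 6 rose and 3 fell in beta-TC3 (median 0.05). The NuRD subunits Mbd3 and Mta1 were among those that fell. Mbd3, a methyl-CpG-binding family protein, measured 6.06, 6.49 and 7.09 against 7.61 to 8.39 (median 7.95) in alpha-TC1 at 6 h, a difference of −1.36 (SE 0.155, limma adjusted p 2.54e-11), and 6.89, 6.86 and 6.43 against 7.57 to 8.35 at 24 h (−1.23). In beta-TC3 it fell by 1.23 at 6 h and the difference was −0.30 at 24 h (limma adjusted p 0.288). Mta1 fell by 1.02 in alpha-TC1 and 0.64 in beta-TC3 at 6 h.

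Some genes for acetyltransferases fell as well. Of 9 measured acetyltransferases and acetyl-lysine readers 4 fell and none rose in alpha-TC1 at 6 h (median −0.32, against −0.034 over all genes), and 4 fell and 1 rose in beta-TC3 (median −0.19 against −0.006). Kat2b, the acetyltransferase PCAF, measured 7.28, 6.77 and 6.88 against 8.12 to 8.66 (median 8.33) in alpha-TC1, a difference of −1.27 (SE 0.131, limma adjusted p 7.67e-13), with no overlap. Its difference in beta-TC3 was −0.53 (adjusted p 0.000362), and −0.31 (adjusted p 0.11) without replicate 3. Kat2a, the related enzyme GCN5, fell by 0.77 in alpha-TC1. Its call in beta-TC3 at 6 h was lost under several alternatives. Without the batch term it was −0.39 (limma adjusted p 0.0558), and with LBH-589 and DMSO arrays alone −0.30 (adjusted p 0.106). Macroh2a2, which encodes a histone variant of silent chromatin, fell in both lines at 6 h. Its LBH-589 arrays measured 5.67, 5.18 and 5.60 against 7.08 to 7.97 (median 7.48) in alpha-TC1 (−2.0, SE 0.167, limma adjusted p 1.44e-16) and 4.76, 5.34 and 4.36 against 6.17 to 7.01 (median 6.77) in beta-TC3 (−1.81, SE 0.184, adjusted p 7.58e-13). A second probe set of Macroh2a2 moved less, by −0.31 and −0.44. At 24 h the beta-TC3 difference was 0.11 (adjusted p 0.845), and the alpha-TC1 difference of −0.90 (adjusted p 0.00171) became −0.68 (adjusted p 0.0968) without replicate 3. The linker histone gene H1f2 rose in alpha-TC1 at 6 h to 8.01, 8.93 and 8.24 from 6.16 to 7.84 (1.44, SE 0.16, limma adjusted p 1.17e-11), and its difference at 24 h was −0.21. In beta-TC3 at 6 h H1f2 was 0.94 higher (adjusted p 4.15e-07), but the arrays overlapped and the call was lost without the batch term (0.57, adjusted p 0.405). H2ax, a histone variant phosphorylated at DNA breaks, fell by 0.75 in alpha-TC1 and 0.68 in beta-TC3 at 6 h.

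Elongation by RNA polymerase II depends on the kinase P-TEFb, which is held inactive by HEXIM1 on a small nuclear RNA that MEPCE caps. Of 8 measured genes of this system, 4 rose and 1 fell in alpha-TC1 at 6 h, and 4 rose and 2 fell in beta-TC3. The shares over all genes were 16.9% higher and 13.6% lower in alpha-TC1, and 16.3% and 13.4% in beta-TC3. Mepce fell by 0.98 and 0.89. Ell2, a subunit of the super elongation complex, rose in alpha-TC1 to 7.59, 7.71 and 7.57 from 6.10 to 7.04 in DMSO (1.22, SE 0.215, limma adjusted p 2.86e-06), and its beta-TC3 difference was 0.35 (adjusted p 0.137). Hexim1 was 0.24 higher in alpha-TC1 without a call at 6 h, rose by 0.71 there at 24 h, and fell by 0.52 in beta-TC3 at 6 h.

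Genes of mitosis fell in both lines at 6 h and had returned close to the DMSO level at 24 h. Of 21 measured mitosis genes 16 fell in alpha-TC1 at 6 h and none rose (median −0.71 against −0.034 over all genes), and 15 fell in beta-TC3 and none rose (median −0.78 against −0.006). Of 19 DNA replication genes 10 and 16 fell (medians −0.30 and −0.57), and none rose. Cdc20, which activates the anaphase-promoting complex, measured 7.58, 7.67 and 7.78 in alpha-TC1 against 8.98 to 9.82 (median 9.54), and 8.29, 8.33 and 8.18 in beta-TC3 against 9.45 to 9.74 (median 9.57). In each line all 3 treated arrays lay more than 1 log2 unit below the lowest control. The differences were −1.76 (SE 0.138, limma adjusted p 7.94e-18) and −1.37 (SE 0.107, adjusted p 2.11e-17). The mitotic kinase gene Plk1 fell by 1.26 and 1.05, Aurka by 1.29 and 1.00, and the centromeric histone gene Cenpa by 1.32 and 1.13. Tk1, the thymidine kinase of S phase, measured 5.93, 5.88 and 5.23 in beta-TC3 at 6 h against 7.52 to 8.18 (median 7.90), a difference of −2.37 (SE 0.188, limma adjusted p 4.53e-17), and fell by 1.87 in alpha-TC1. Rrm2, a subunit of ribonucleotide reductase, fell by 1.30 and 1.22, and the replication licensing gene Cdt1 by 1.01 and 1.06. Bulk arrays cannot tell fewer cells in a phase from less RNA per cell.

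At 24 h no mitosis gene was lower and 4 were higher in alpha-TC1 (median 0.11 against −0.022 over all genes; 1 higher without replicate 1), and 1 was lower in beta-TC3 (median −0.17 against 0.014). That gene was Cdc20, with arrays at 8.87, 9.42 and 8.93 against 9.15 to 9.79 (−0.45, limma adjusted p 0.0451), and it was no longer called without replicate 1 (−0.37, adjusted p 0.342) or replicate 3. The change of the effect from 6 h to 24 h was itself tested, over arrays of both times. It was called and upward for 18 of 21 mitosis genes in alpha-TC1 and 15 of 21 in beta-TC3, and for 8 and 13 of 19 replication genes; over all genes 16.4% and 17.7% were called in these tests, 7.11% and 8.45% upward. For Cdc20 this change was 1.41 (SE 0.249, limma adjusted p 5.93e-06) in alpha-TC1 and 0.92 (SE 0.184, adjusted p 5.05e-05) in beta-TC3. For Tk1 in beta-TC3 it was 2.24 (SE 0.264, adjusted p 1.63e-11).

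Regulators of the G1 phase moved in both directions. Cdk4, the kinase partner of D cyclins, measured 7.98, 7.94 and 8.12 in alpha-TC1 at 6 h against 8.90 to 9.64 (median 9.35), and fell by 1.36 (SE 0.118, limma adjusted p 8.45e-16). In beta-TC3 it fell by 0.89. Rb1, the retinoblastoma gene, rose by 0.76 and 0.59, and Cdk2 by 0.52 and 0.60. Cdkn1a, which encodes the inhibitor p21 and is often raised by deacetylase inhibitors, was not called at any time in either line, with differences of 0.12 and 0.27 in alpha-TC1 and 0.16 and 0.25 in beta-TC3 at 6 and 24 h. In beta-TC3 at 24 h Cdkn1a was called with the mean of all probe sets (0.25, limma adjusted p 0.0452) and without the arrays of 1 plate (0.29, adjusted p 0.0345). Cdkn1b fell by 0.64 and 0.63 at 6 h, the second of these not without replicate 3 (−0.42, limma adjusted p 0.117). Cdkn1c, which encodes the imprinted inhibitor p57, rose at 24 h. It measured 7.75, 6.96 and 7.42 against 5.75 to 6.89 (median 6.18) in alpha-TC1 (1.06, SE 0.206, limma adjusted p 8.69e-05) and 5.71, 5.47 and 6.29 against 4.59 to 5.51 (median 5.00) in beta-TC3 (0.88, SE 0.183, adjusted p 0.000659). The groups did not overlap in alpha-TC1, whereas 1 treated array fell among the controls in beta-TC3. The maintenance DNA methyltransferase gene Dnmt1 fell by 0.60 and 0.99 at 6 h. Bid, which links death receptors to mitochondria, rose by 1.11 (LBH-589 6.06, 6.12 and 6.36; DMSO 4.39 to 5.62) and 1.20 (5.59, 5.43 and 5.97; 3.94 to 4.76) at 6 h, and its differences at 24 h were −0.23 and −0.04. Of 17 measured BCL2 family genes 6 rose and none fell in alpha-TC1 at 6 h (median 0), and 5 rose and 2 fell in beta-TC3. Among all genes 16.9% were called higher and 13.6% lower in alpha-TC1, and 16.3% and 13.4% in beta-TC3.

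Islet transcription factors fell at 6 h while the hormone genes did not. Of 12 measured genes of the beta cell marker list 8 fell and none rose in alpha-TC1 at 6 h (median −0.57, and 5 fell without replicate 2). In beta-TC3 7 fell and none rose (median −0.73). Of all genes 13.6% and 13.4% were called lower. Nkx2-2, Pax6, Isl1 and Neurod1, named next, serve alpha cells as well as beta cells, so their falls are not particular to beta cell markers. Nkx2-2 measured 5.73, 5.04 and 5.27 against 7.12 to 8.21 (median 7.54) in alpha-TC1, a difference of −2.21 (SE 0.184, limma adjusted p 1.42e-16). In beta-TC3 it measured 6.76, 6.25 and 4.80 against 7.60 to 8.54 (median 7.91), a difference of −1.93 (SE 0.205, adjusted p 3.41e-12), and its arrays spread more widely there while remaining below every control. Pax6 fell by 0.77 and 1.15, Isl1 by 0.82 and 0.80, and Neurod1 by 0.67 and 1.18, the alpha-TC1 call of Neurod1 being lost without replicate 2 (−0.51, adjusted p 0.0843). Pdx1 fell in beta-TC3 from 9.14 to 9.63 (median 9.51) to 8.71, 8.66 and 7.73 (−0.94, SE 0.131, limma adjusted p 1.56e-08). Its level in alpha-TC1 was low in DMSO, between 3.14 and 4.77, and its call there (−0.47, adjusted p 0.0468) did not hold under several alternatives. Nkx6-1 fell by 0.75 and 0.67. Ins2 in beta-TC3 measured 13.29, 13.32 and 13.25 against 13.19 to 13.49 at 6 h (0.02, adjusted p 0.887), near the top of the measured range, where arrays compress differences.

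G6pc2, a glucose-6-phosphatase subunit of islets, fell and then recovered. It measured 5.72, 5.43 and 5.95 in alpha-TC1 at 6 h against 7.40 to 9.25 (median 8.49), a difference of −2.56 (SE 0.188, limma adjusted p 5.98e-19), and 9.63, 9.87 and 9.19 in beta-TC3 against 10.61 to 11.22 (median 10.87), a difference of −1.46 (SE 0.161, adjusted p 1.08e-11). None of these arrays reached the controls. At 24 h the arrays lay at 9.05, 9.42 and 8.98 against 8.15 to 9.31 in alpha-TC1 (0.59, adjusted p 0.113) and at 10.97, 10.70 and 10.59 against 10.63 to 11.17 in beta-TC3 (−0.10, adjusted p 0.841). The change from 6 to 24 h was 3.15 (SE 0.321, limma adjusted p 4.82e-14) in alpha-TC1 and 1.37 (SE 0.246, adjusted p 6.5e-06) in beta-TC3. Of the genes of the beta cell marker list 6 moved upward in this test in each line, against 7.11% and 8.45% of all genes. In beta-TC3 1 moved downward.

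Of 6 measured alpha cell markers in alpha-TC1, 3 fell at 6 h (Irx1, Irx2 and Pou3f4; median −0.43) and 3 rose at 24 h (Pou3f4, Gcg and Ttr; median 0.24; 1 without the batch term). The change between times was called upward for 5 of the 6 (median 0.65), against 7.11% of all genes, and for none in beta-TC3. Irx1 measured 6.17, 5.94 and 6.46 against 7.07 to 7.64 (median 7.32), a difference of −1.21 (SE 0.137, limma adjusted p 1.69e-11), and Irx2 fell by 0.78. At 24 h their differences were −0.28 and −0.17, neither of them called. Pou3f4 fell by 0.73 at 6 h and was 0.89 higher at 24 h (limma adjusted p 0.0285), a call lost when any of the 3 replicates was left out. Gcg measured 12.18, 12.55 and 12.42 against 12.21 to 12.67 at 6 h, with no difference (−0.00, SE 0.0893), and 12.67, 12.82 and 12.66 against 11.90 to 12.74 (median 12.31) at 24 h, where it was 0.51 higher (SE 0.11, limma adjusted p 0.000392). The treated arrays at 24 h lay at the top of the control range and partly within it. The change of the Gcg effect between times was 0.51 (SE 0.14, adjusted p 0.00422). Ttr, which encodes transthyretin, was 0.56 higher at 24 h (0.41 and adjusted p 0.0894 without the batch term). The secretory granule genes Chgb and Scg3 rose by 0.84 and 0.67 in alpha-TC1 at 24 h, with Chgb at 11.78, 11.82 and 12.01 against 10.71 to 11.61 (median 11.16). None of the 6 alpha cell markers was called in beta-TC3 at 6 or 24 h. Gcg in beta-TC3 varied with the batch, the DMSO arrays at 24 h spanning 6.18 to 10.43, and its difference was −0.03 (adjusted p 0.97).

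Cholesterol synthesis genes rose in both lines at 6 h. The pathway, driven by the SREBP2 transcription factor, turns acetyl-CoA into sterols. Of 14 measured genes 11 rose and none fell in alpha-TC1 (median 0.66 against −0.034 over all genes) and 8 rose and none fell in beta-TC3 (median 0.45 against −0.006). Msmo1, a sterol methyl oxidase, measured 9.34, 9.73 and 9.09 against 7.10 to 9.70 (median 8.04) in alpha-TC1. The pooled groups overlapped because DMSO levels differed between batches, but within its own batch each treated array stood higher, by 1.51, 1.44 and 1.32, and the fit gave 1.34 (SE 0.17, limma adjusted p 6.9e-10). In beta-TC3 the difference was 0.71 (SE 0.148, adjusted p 7.15e-05), with arrays at 9.47, 9.54 and 10.67 against 8.35 to 9.97. Idi1, the isopentenyl diphosphate isomerase, rose by 1.02 and 0.69. Fdft1, squalene synthase, measured 8.18, 8.46 and 8.07 against 6.43 to 7.78 (median 7.18) in alpha-TC1 without overlap (1.06, SE 0.14, limma adjusted p 2.34e-09) and rose by 0.53 in beta-TC3. Dhcr7 rose by 1.03 and 0.84, Mvk by 0.83 and 0.79, and Hsd17b7 by 0.98 and 1.02. Acss2, which makes acetyl-CoA from acetate, rose to 8.82, 8.90 and 8.48 from 7.37 to 7.85 (1.14, SE 0.11, adjusted p 4.6e-14) and to 7.80, 7.80 and 8.53 from 5.91 to 7.34 (1.48, SE 0.158, adjusted p 4.2e-12).

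By 24 h the cholesterol genes were near or below DMSO. In alpha-TC1 2 were higher and 3 lower (median −0.02), and in beta-TC3 1 was lower (median −0.11). Hsd17b7 was still 0.99 higher in alpha-TC1 (0.70 and adjusted p 0.0961 without the batch term). Lss, lanosterol synthase, fell by 0.54 there, a call lost when any of the 3 replicates was left out. The change of the effect from 6 to 24 h was called and downward for 8 of 14 genes in alpha-TC1 (median −0.81) and 7 in beta-TC3 (median −0.72), against 9.32% and 9.27% of all genes. For Msmo1 the change was −1.47 (SE 0.252, limma adjusted p 2.88e-06) and −0.89 (SE 0.219, adjusted p 0.00112), the second not called without the batch term (−1.11, adjusted p 0.139).

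More glutathione transferase genes were called higher at 24 h than at 6 h. These enzymes join glutathione to reactive molecules. Of 18 measured 4 rose in each line at 6 h (medians 0.15 and 0.02), and at 24 h 11 rose in alpha-TC1 (median 0.54 against −0.022 over all genes; 7 with low genes left out) and 5 in beta-TC3 (median 0.28 against 0.014; 2 without replicate 1); none fell. The change between times was called upward for 8 and downward for 1 of the 18 in alpha-TC1, and upward for 1 in beta-TC3. Of 13 measured oxidative stress genes, targets of the transcription factor NRF2, 5 rose and 3 fell in alpha-TC1 at 6 h (median 0.20) and 3 rose and 4 fell in beta-TC3 (median 0.06). At 24 h 3 of them rose in alpha-TC1 (median −0.07) and 0 in beta-TC3 (median −0.04). Gstt1 measured 8.35, 8.24 and 8.16 against 5.86 to 6.52 (median 6.10) in alpha-TC1 at 24 h (2.00, SE 0.157, limma adjusted p 3.04e-16) and 8.33, 7.49 and 7.50 against 5.22 to 6.61 (median 5.96) in beta-TC3 (1.95, SE 0.175, adjusted p 1.4e-13). Gstk1, the mitochondrial and peroxisomal form, measured 8.14, 7.88 and 7.39 against 5.26 to 6.49 (1.63, SE 0.21, adjusted p 1.29e-08) and 6.34, 5.90 and 6.01 against 3.41 to 4.28 (2.24, SE 0.206, adjusted p 1.87e-13). For both genes every treated array in both lines lay above every control. The microsomal enzyme gene Mgst3 rose by 2.34 in alpha-TC1 at 24 h, and by 1.22 in beta-TC3 (limma adjusted p 0.000839; 0.98 and adjusted p 0.0654 without replicate 1). Ptgr1, a reductase of reactive lipid aldehydes and prostaglandins, measured 7.12, 6.69 and 6.66 against 3.28 to 3.95 (median 3.63) in alpha-TC1 at 24 h (3.17, SE 0.196, adjusted p 6.41e-21), and 6.65, 7.07 and 7.19 against 4.13 to 5.32 in beta-TC3 (2.47, SE 0.214, adjusted p 3.34e-14). It was already 1.72 and 1.91 higher at 6 h.

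Gsta4, the transferase that handles the lipid aldehyde hydroxynonenal, gave the largest change of any called gene at 6 or 24 h, and it differed between the lines. In alpha-TC1 it measured 6.99, 7.19 and 6.68 at 6 h against 3.56 to 4.14 (median 3.86), a rise of 3.02 (SE 0.233, limma adjusted p 5.21e-18), and 8.57, 8.01 and 8.33 at 24 h against 3.63 to 4.24 (median 3.77), a rise of 4.35 (SE 0.289, adjusted p 1.45e-19). In beta-TC3 it lay at 3.53, 3.52 and 3.55 at 6 h against 3.19 to 3.69, and its difference at 24 h was 0.32 (adjusted p 0.216). The lines' effects differed by 3.00 (SE 0.27, limma adjusted p 3.09e-17) at 6 h and 4.03 (SE 0.329, adjusted p 1.81e-19) at 24 h. The further rise in alpha-TC1 from 6 to 24 h was 1.33 (SE 0.378, adjusted p 0.00643), and 1.10 (adjusted p 0.058) without the first replicate at 24 h.

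Interferon-responsive and antigen-presenting genes rose in alpha-TC1, and several of these effects differed between the lines. Of 14 measured interferon genes 5 rose and none fell in alpha-TC1 at each of 6 and 24 h (medians 0.16 and 0.42), and in beta-TC3 1 rose and 2 fell at 6 h and 3 rose at 24 h. The shares of all genes called higher at these times were 16.9% and 7.49% in alpha-TC1 and 16.3% and 3.92% in beta-TC3. In beta-TC3 at 6 h 13.4% of all genes were called lower. Rsad2 was still 2.61 higher in alpha-TC1 at 24 h, at 7.92, 6.46 and 8.76 against 4.39 to 5.63, and 1.45 higher in beta-TC3. Usp18, which removes the ubiquitin-like ISG15, measured 7.21, 7.17 and 6.93 against 5.42 to 6.58 at 6 h in alpha-TC1 (1.18, SE 0.162, limma adjusted p 7.43e-09), and 8.69, 8.72 and 8.43 against 8.38 to 8.93 in beta-TC3 (−0.11, adjusted p 0.655). Of 11 antigen presentation genes 6 rose and 1 fell in alpha-TC1 at both times (medians 0.53 and 0.85), and 3 rose and 2 fell in beta-TC3 (medians 0.04 and 0.15; 1 and 1 at 24 h without replicate 1). H2-D1, a class I histocompatibility heavy chain, measured 8.40, 7.43 and 7.97 against 5.80 to 6.51 (median 6.24) in alpha-TC1 at 24 h (1.71, SE 0.205, limma adjusted p 1.62e-09), whereas in beta-TC3 it was high in both groups, 10.55, 10.93 and 10.55 against 10.19 to 10.95 (0.16). The lines' effects on H2-D1 at 24 h differed by 1.55 (SE 0.242, adjusted p 1.6e-06). Of its 5 probe sets, 3 rose in alpha-TC1 at 24 h, by 1.71, 2.36 and 2.35, and 2 with levels near 3 moved by 0.07 and 0.03. In the test between the lines at 6 h 4 of the 14 interferon genes and 3 of the 11 antigen presentation genes were called, all in favour of alpha-TC1, where 10.4% of all genes were called and 5.38% in that direction.

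The class Ib gene H2-T23 rose in both lines. It measured 7.02, 6.92 and 7.19 against 3.88 to 6.09 (median 4.48) in alpha-TC1 at 24 h (2.46, SE 0.335, limma adjusted p 5.95e-08) and 8.70, 8.83 and 9.11 against 7.04 to 8.27 (median 7.58) in beta-TC3 (1.42, SE 0.197, adjusted p 1.81e-07). No treated array overlapped the controls in either line. The immunoproteasome subunit genes split: Psmb9 rose by 1.24 at 6 h in alpha-TC1 (LBH-589 5.35, 5.57 and 5.61; DMSO 3.83 to 4.54), while Psmb10 fell. Psmb10 measured 4.73, 4.46 and 4.68 against 5.92 to 6.59 (median 6.25) in alpha-TC1 at 24 h (−1.54, SE 0.171, limma adjusted p 1.7e-10) and 3.91, 4.98 and 4.99 against 5.44 to 6.56 (median 5.78) in beta-TC3 (−1.24, SE 0.154, adjusted p 9.08e-09). Its falls at 6 h were smaller, 0.53 and 0.52.

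Lysosome and autophagy genes rose in alpha-TC1. Of 15 measured 9 rose and 1 fell at 6 h and 10 rose at 24 h in alpha-TC1 (medians 0.32 and 0.47), and 5 and 1 rose in beta-TC3 (medians 0.12 and 0.13; 1 at 6 h without replicate 1). Ctsl, the protease cathepsin L, measured 11.02, 10.76 and 11.12 against 9.30 to 10.41 (median 9.90) in alpha-TC1 at 24 h (1.13, SE 0.129, limma adjusted p 3.91e-10). The hexosaminidase gene Hexa measured 8.74, 9.23 and 9.28 against 8.04 to 8.63 (0.76, SE 0.119, adjusted p 1.71e-06), and in beta-TC3 the difference was −0.02. Between the lines the effect on Hexa at 24 h differed by 0.78 (SE 0.14, limma adjusted p 2.64e-05; 0.61 and adjusted p 0.329 without the batch term). In this test of the difference 5 of 15 lysosomal genes were called, all higher in alpha-TC1, where 5.26% of all genes were called and 2.67% in that direction.

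Stress genes of the endoplasmic reticulum and amino acid supply were lower at 24 h. Of 19 measured 8 fell and 2 rose in alpha-TC1 (median −0.32 against −0.022 over all genes; 5 fell without replicate 2 and 4 without replicate 3), and 4 fell in beta-TC3 (median −0.27 against 0.014; 1 without replicate 1). Trib3, a pseudokinase induced by ATF4, measured 4.44, 4.38 and 4.22 against 4.89 to 7.33 (median 5.70) in alpha-TC1, below all controls (−1.38, SE 0.272, limma adjusted p 0.000103). Chac1, which degrades glutathione, measured 6.23, 5.78 and 5.81 against 6.79 to 7.78 (median 7.16), a difference of −1.12 (SE 0.194, adjusted p 1.14e-05), after a rise of 0.64 at 6 h. Its change between times was −1.76 (SE 0.239, limma adjusted p 6.3e-09). Shmt2, the mitochondrial serine hydroxymethyltransferase, fell by 1.08 at 24 h, and Slc7a5, a large amino acid transporter, by 0.92 after a rise of 0.67 at 6 h. The call for Ddit3, the transcription factor CHOP, at 24 h in alpha-TC1 (−1.17, adjusted p 0.0155) was lost without replicate 2 or 3. In beta-TC3 the call for Trib3 (−0.87, adjusted p 0.00568) was lost without replicate 2 (−0.66, adjusted p 0.13).

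**Figure D3:**
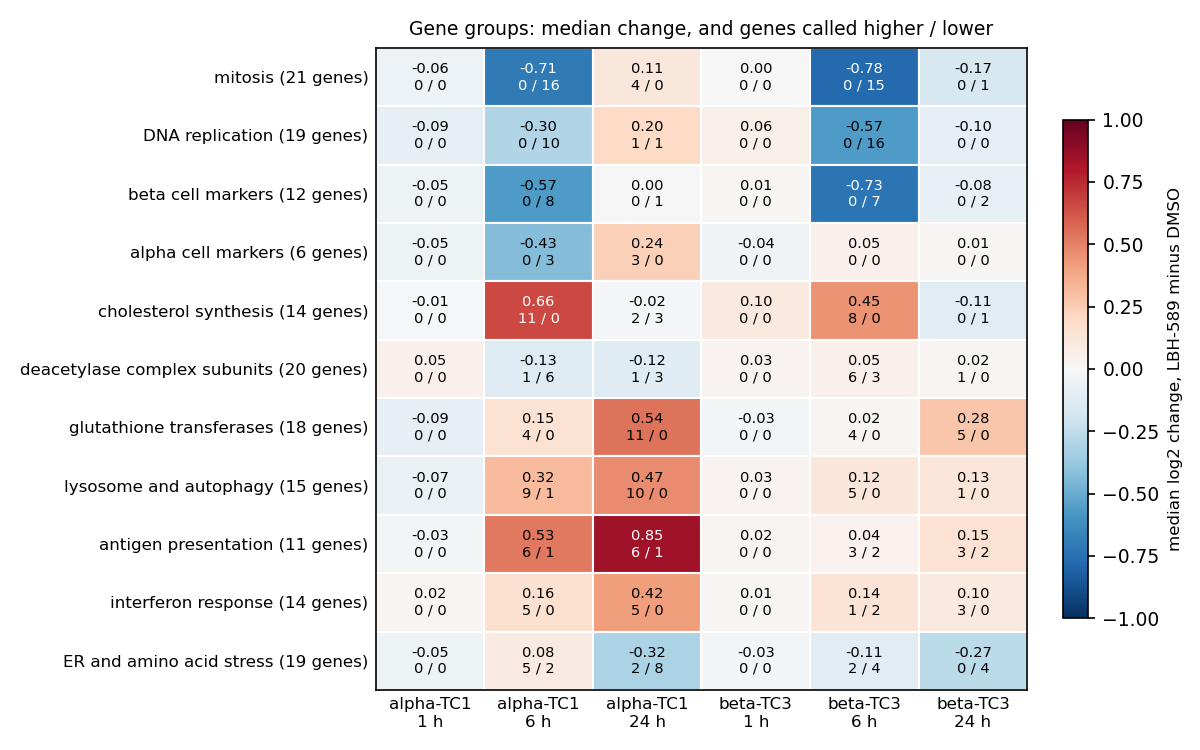
Gene lists (rows) by line and time (columns), coloured by the median log2 difference of the list (LBH-589 minus DMSO, red higher, blue lower), with that median and the numbers of genes called higher and lower printed in each cell. Mitosis is blue at 6 h in both lines (−0.71 and −0.78) and near 0 at 24 h, cholesterol synthesis is red at 6 h (0.66 and 0.45) and near 0 at 24 h, and the glutathione transferases in alpha-TC1 go from 0.15 to 0.54.

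At 24 h Selenop and Lgals1 were higher in alpha-TC1, and Tesc and Hspb1 were higher in beta-TC3. Selenop, the secreted carrier of selenium, measured 7.62, 7.82 and 8.82 at 24 h in alpha-TC1 against 3.52 to 5.74 (median 4.86), a 12.9-fold rise (3.69, SE 0.285, limma adjusted p 1.55e-16). Lgals1, which encodes galectin, measured 7.92, 8.16 and 8.50 against 4.46 to 5.87 (median 5.20; 2.90, SE 0.269, adjusted p 2.11e-13), without overlap. The alpha globin gene Hba-a1 rose there by 3.07, from 3.74 to 4.50 in DMSO to 7.38, 6.87 and 7.87. The effect on Selenop at 24 h differed between the lines by 2.83 (SE 0.377, limma adjusted p 1.08e-08) and that on Lgals1 by 2.44 (SE 0.326, adjusted p 1.08e-08). Selenop was also called higher in beta-TC3 at 24 h. That call was lost without the batch term (0.60, limma adjusted p 0.325) and without replicate 1 (0.53, adjusted p 0.406). Tesc, a calcium-binding regulator of a sodium-proton exchanger, measured 7.94, 7.26 and 7.87 in beta-TC3 at 24 h against 4.69 to 5.54 (median 5.07), a rise of 2.78 (SE 0.266, adjusted p 8.76e-13). In alpha-TC1 it was high in all arrays, 11.44, 11.56 and 11.51 against 11.45 to 11.84, near the top of the measured range, where arrays compress differences. The lines differed by −2.83 (alpha-TC1 minus beta-TC3, SE 0.296, limma adjusted p 3.73e-13), and the change of the Tesc effect in beta-TC3 from 6 to 24 h was 1.64 (SE 0.315, adjusted p 2.48e-05). The small heat shock protein gene Hspb1 measured 7.07, 6.82 and 6.69 in beta-TC3 at 24 h against 5.33 to 6.20 (1.21, SE 0.182, limma adjusted p 1.24e-06), and its effect differed between the lines by −1.23 at 6 h and −1.41 at 24 h. Of its 4 probe sets 2 rose in beta-TC3 at 24 h, by 1.21 and 0.99, and 2 with levels near 3 moved by 0.18 and 0.01.

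Many of the genes called at 6 h were called in the same direction in both lines. Of the genes called higher, 1176 were shared, 58.8% of those in alpha-TC1 and 61.3% of those in beta-TC3; of those called lower, 899 were shared, 55.8% and 56.8%. At 24 h 191 higher genes were shared, 21.6% and 41.3%, and 109 lower ones, 12.2% and 38.7%. Pearson's r across the 11807 genes was 0.66 at 6 h and 0.4 at 24 h, a description across genes, which are not independent replicates. A difference between the lines' effects was called for 1233 genes at 6 h (10.4%), 635 in favour of alpha-TC1 (5.38%) and 598 of beta-TC3 (5.06%), and for 621 at 24 h (5.26%), 315 (2.67%) and 306 (2.59%). The count at 24 h was 349 without alpha-TC1 replicate 3, 356 without beta-TC3 replicate 2 and 361 without the batch term. Median centring turned the 6 h split to 417 and 920.

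Some of the called differences came from genes with little signal in 1 line, and others from opposite or unequal moves in the lines. Kcnk2 belongs to the first kind: in beta-TC3 it lay between 2.83 and 3.40 in DMSO, and the lines differed by −3.54 (SE 0.201, limma adjusted p 1.24e-32) at 6 h. Irx1 (−1.33, SE 0.21, adjusted p 4.45e-07) and Sdcbp2 (2.45, SE 0.229, adjusted p 2.54e-16) were likewise low in the line where they did not change. Tacc2, a centrosomal protein gene, moved in opposite directions. It measured 7.19, 7.19 and 6.97 against 5.43 to 6.63 in alpha-TC1 (1.21, limma adjusted p 6.1e-08) and 5.05, 5.00 and 4.85 against 5.89 to 7.08 in beta-TC3 (−1.39, adjusted p 8.88e-09), a difference of 2.60 (SE 0.266, adjusted p 2.07e-14). The iron exporter gene Slc40a1 rose to 7.87, 7.88 and 7.50 from 5.17 to 5.93 in alpha-TC1 and lay at 8.96, 8.99 and 9.37 against 8.86 to 9.27 in beta-TC3, a difference of 2.07 (SE 0.185, adjusted p 3.09e-17). Insl6 rose in both lines at 6 h, by 0.90 and 2.90, and the difference of −2.0 was called (SE 0.226, adjusted p 3e-12).

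**Figure D4:**
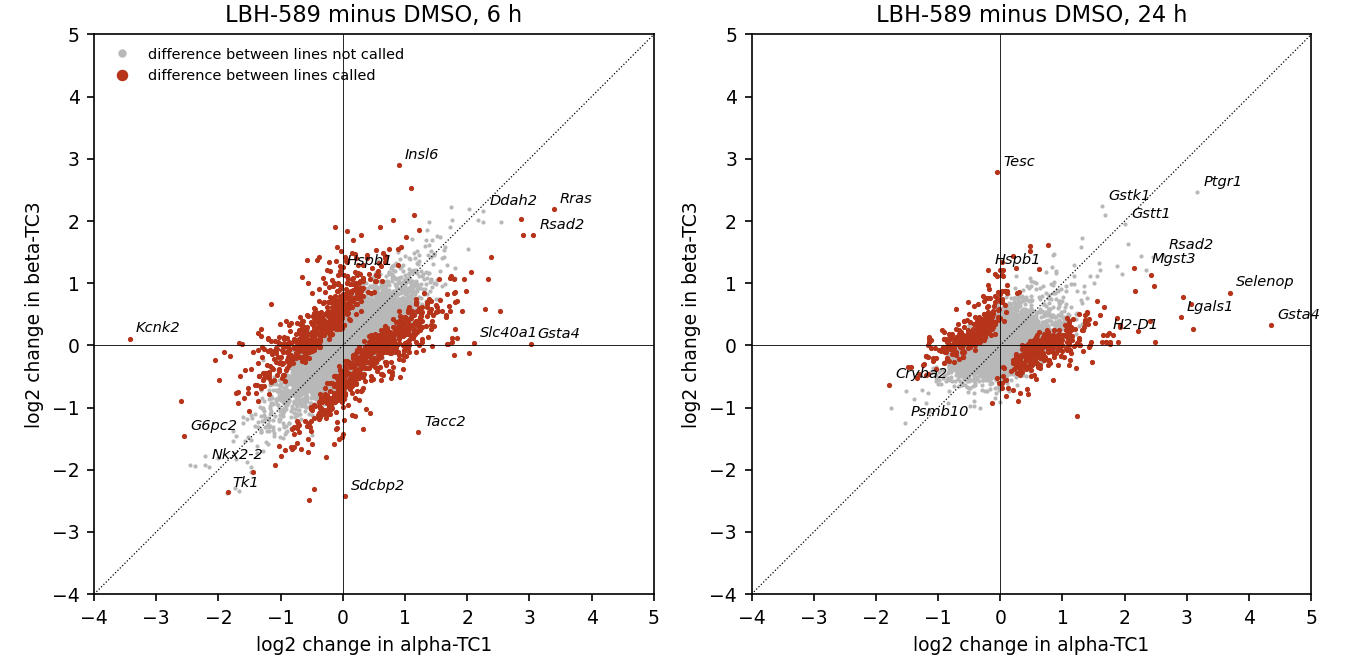
Log2 difference of each gene (LBH-589 minus DMSO) in alpha-TC1 (horizontal axis) against beta-TC3 (vertical axis) at 6 h and 24 h, 11807 points a panel, with genes called different between the lines in red (1233 and 621), the diagonal dotted and some named genes labelled. Points lie along the diagonal more closely at 6 h (r 0.66 across genes) than at 24 h (r 0.4), and Gsta4 and, at 6 h, Kcnk2 lie along the horizontal axis.

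At 1 h the called genes were Ier3 and Txnip, both in beta-TC3. Txnip, an inhibitor of thioredoxin that responds to glucose, measured 7.91, 8.27 and 7.91 against 6.46 to 8.07 (median 7.43). Of the 3 treated arrays 2 lay within the control range, and the batch-adjusted difference was 0.74 (SE 0.134, limma adjusted p 0.0035). Ier3, an immediate early gene, measured 6.35, 7.14 and 6.71 against 4.98 to 6.36 (median 5.87; 0.90, SE 0.163, adjusted p 0.0035). Neither was called without the batch term or without replicate 1. In alpha-TC1 Txnip at 1 h measured 9.03, 7.67 and 6.44 against 6.47 to 7.94, the array that stood apart being the high one, and Rsad2 measured 6.20 in that array against 4.80 and 4.75 in the others. Without that array 0 genes were called by limma in alpha-TC1 at 1 h and 224 had an unadjusted p under 0.05. Insl6 in beta-TC3, at 4.50, 4.52 and 4.54 against 3.59 to 4.20, was above all controls at 1 h, but the difference of 0.55 did not pass (adjusted p 0.248). By 6 h Txnip was 0.85 higher in alpha-TC1 and 0.68 higher in beta-TC3 (0.54 and adjusted p 0.0941 without the batch term), and at 24 h it was 1.05 higher in alpha-TC1 (limma adjusted p 0.00142; 1.06 and 0.0831 without the batch term).

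Many of the differences of 6 h were smaller at 24 h in both lines. The 314 genes higher at least 2-fold at 6 h in alpha-TC1 had medians of 0.01, 1.20 and 0.45 at 1, 6 and 24 h, and 150 of them (47.8%) were called higher at 24 h. The 200 lower at least 2-fold had medians of −0.03, −1.22 and −0.35, and 37% were still called lower. In beta-TC3 the 224 higher genes had medians of 0.05, 1.19 and 0.31, with 36.2% still called, and the 184 lower genes 0.02, −1.25 and −0.17, with 12% still called. These sets were chosen on the 6 h value, which alone favours a smaller value at another time. Kcnk2 returned most of the way in alpha-TC1, to 7.16, 7.75 and 5.97 at 24 h against 7.38 to 8.46 (−0.96, limma adjusted p 0.0104; −0.83 and adjusted p 0.128 without replicate 3), a change of 2.47 (SE 0.331, adjusted p 4.66e-09). Insl6 in beta-TC3 went from 2.90 to 1.46 above DMSO, a change of −1.44 (SE 0.25, limma adjusted p 3.22e-06). H1f2 changed by −1.64 (SE 0.263, adjusted p 5.82e-07) in alpha-TC1 and by −1.27 (SE 0.245, adjusted p 2.43e-05; −1.08 and 0.237 without the batch term) in beta-TC3. Over all genes the change was called for 1941 in alpha-TC1, 840 upward and 1101 downward (1121 and 832 with centred arrays), and for 2092 in beta-TC3, 998 and 1094. Of 145 genes higher at least 2-fold at 24 h in alpha-TC1, 114 had been called higher at 6 h and 110 had a larger difference at 24 h, which their choice on the 24 h value favours.

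Other hydroxamic acids were applied to the same lines at other doses and share the DMSO arrays with LBH-589, so their values are only set side by side. At 6 h SAHA (vorinostat) at 1.3 µM called 3676 genes in alpha-TC1 and 4193 in beta-TC3, trichostatin A at 0.22 µM 4430 and 4926, and PXD101 (belinostat) at 2.4 µM 4268 and 4712, beside 3611 and 3501 for LBH-589 at 0.015 µM. At 24 h SAHA called 2445 (2 arrays) and 1615, trichostatin A 5057 and 3589, PXD101 4842 and 5003, and scriptaid at 2 µM 50 (2 arrays) and 6, beside 1776 and 745. At 6 h in alpha-TC1 the mitosis median was −0.71 with LBH-589, −0.74 with SAHA, −0.73 with trichostatin A and −0.85 with PXD101, and the cholesterol synthesis medians were 0.66, 0.61, 0.92 and 0.65. At 24 h the mitosis medians there were 0.11, −0.30, −1.65 and −1.58, with 0, 9, 21 and 21 of 21 genes called lower. In beta-TC3 at 24 h they were −0.17, −0.33, −0.93 and −1.82. With scriptaid the mitosis medians were −0.74 and −0.71 at 6 h in alpha-TC1 and beta-TC3, and 0.25 (2 arrays) and 0.21 at 24 h, with 0 of 21 genes called lower in either line. Cdc20 in alpha-TC1 at 24 h stood at −0.36 (SE 0.205) with LBH-589, −1.49 (SE 0.246) with SAHA, −3.81 (SE 0.202) with trichostatin A and −3.57 (SE 0.207) with PXD101. Gsta4 in alpha-TC1 at 24 h was 4.35, 4.78, 5.07 and 5.04 higher with the 4 compounds in the same order. In beta-TC3 at 24 h Gsta4 was 0.32, 0.51, 2.36 and 1.87 higher. Kcnk2 in alpha-TC1 at 6 h was lower by −3.43, −3.69, −3.81 and −4.04. No test of these compounds against each other was made.

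**Figure D5:**
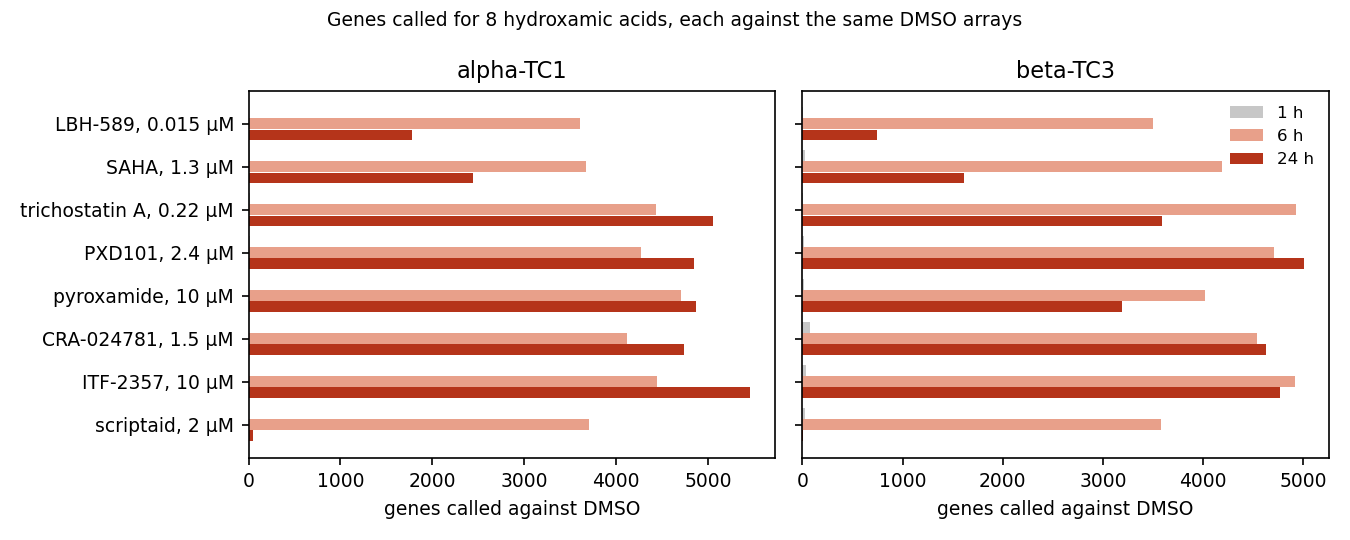
Numbers of genes called against DMSO (horizontal axis) for 8 hydroxamic acids, each at the dose given beside its name, at 1, 6 and 24 h in alpha-TC1 and beta-TC3. LBH-589 at 0.015 µM has 3611 and 3501 genes at 6 h, and at 24 h 1776 and 745; the doses differ and the DMSO arrays are shared, so bar lengths are not compared by a test.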

How the data were processed

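Expression in alpha-TC1 and beta-TC3 cells was measured on Affymetrix arrays. The authors deposited linear intensity values, 1 for each probe set on each array. RMA, without a version, is the method in the submitters' processing notes, and the genome build is not given in the sources used here. The analysis plan had assumed log2 values, so log2 of the deposited intensities was taken first and nothing was normalized again in the main analysis. Of 22716 probe sets, 18003 had 1 gene symbol in the platform annotation, 287 several and 4426 none. Where several probe sets shared a symbol, the one with the highest mean over all arrays stood for the gene, which left 11807 genes.

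For each line and time, limma 3.58.1 in R 4.3.3 (lmFit and eBayes) was fitted to all arrays of that line and time, with the compound group and the batch as terms, so that all groups shared 1 estimate of the spread. LBH-589 minus DMSO was the contrast, and Benjamini-Hochberg adjustment ran over the 11807 genes with a threshold of 0.05. Effects were compared between lines with batch within line, and between 6 and 24 h with batch within time. A gene's own-batch difference is an LBH-589 array minus the mean of the DMSO arrays of its batch, which were 2 except for beta-TC3 replicate 2 at 6 h, which had 1.

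Named genes were, per line at 6 and 24 h, among the 8 largest rises and 8 largest falls called with 3 own-batch differences of that sign, at 1 h the 5 and 5 largest, in the comparisons of lines and times the 5 and 5 largest, and any member of the gene lists. The LBH-589 arrays, the gene lists and a further set of names (among them Acss2, Rras in beta-TC3 and Metrn) were chosen with earlier results of these data known. Results of 1 further gene are not reported here, and not every gene list is described. Promoters came from RefSeq (GRCm38.p6) by exact symbol, and the 6 printed had the largest mean change at 6 h among genes with 1 promoter and at least 2-fold changes in both lines. Genes of 1 chromosome were left out of this choice.

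Tested on simulated data with known changes of 0.5 and 1 on the log2 scale, the fit recovered 62% and 96% in the beta-TC3 comparison at 24 h, and 16% and 80% in the comparison of lines at 24 h. False calls numbered 9 and 7. The simulated noise was normal and independent between genes, without batch effects, and 100 genes were changed by each amount. These rates are therefore not the power of the real comparisons. Alternatives were no batch term, the array plate as a random block, LBH-589 and DMSO arrays alone, batches 4 to 6 alone, quantile normalization, median centring, leaving out genes under the median level, averaging the probe sets of a gene, the replicate block and each replicate left out. Arrays on 1 plate were also left out, an alternative chosen after seeing the data.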

Additional observations from a re-analysis of the deposited data

Results flagged for a closer look

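The effect of LBH-589 differed between the lines, by the test of the difference itself in limma, for 1233 genes at 6 h and 621 at 24 h, and between 6 and 24 h for 1941 genes in alpha-TC1 and 2092 in beta-TC3. At 6 h the differences, alpha-TC1 minus beta-TC3, were 3.00 for Gsta4, −3.54 for Kcnk2, −2.0 for Insl6, −1.33 for Irx1, −1.23 for Hspb1, 2.60 for Tacc2, 2.07 for Slc40a1 and 2.45 for Sdcbp2. At 24 h they were 4.03 for Gsta4, 1.55 for H2-D1, 0.78 for Hexa, 2.83 for Selenop, 2.44 for Lgals1, −2.83 for Tesc and −1.41 for Hspb1. In alpha-TC1 the effect at 24 h minus that at 6 h was 1.33 for Gsta4, 2.47 for Kcnk2, −1.64 for H1f2, 1.41 for Cdc20, 3.15 for G6pc2, 0.51 for Gcg, −1.47 for Msmo1 and −1.76 for Chac1. In beta-TC3 it was −1.44 for Insl6, −1.27 for H1f2, 0.92 for Cdc20, 2.24 for Tk1, 1.37 for G6pc2, −0.89 for Msmo1 and 1.64 for Tesc.

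Among the 10 DMSO arrays of beta-TC3 at 6 h 1 array lay far from the others by Dixon's criterion for 3 of 117 genes tested: it stood at 3.40 for Kcnk2, at 13.49 for Ins2 and at 6.79 for Hspb1, a different array for each gene. Chance alone gives such a gap in about 1 of 20 groups. No other group was tested in this way, because the LBH-589 groups held only 3 arrays and the other DMSO groups more than 10.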

How the results depend on the processing

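The counts of called genes at 6 h stayed within 1.5 times the main value under every alternative run, and those with 1 replicate left out ranged from 2888 to 3131 in alpha-TC1 and from 2574 to 3074 in beta-TC3. At 24 h they ranged from 990 to 1533 in alpha-TC1 and from 322 to 752 in beta-TC3, which had 415 without a batch term and 333 with LBH-589 and DMSO arrays alone. At 1 h in beta-TC3 the count was 0 without a batch term, 5 with the plate as a random block, 1 with LBH-589 and DMSO arrays alone, 1 with the mean of all probe sets, and 0 to 2 with a replicate left out. In alpha-TC1 at 1 h it was 0 with any replicate left out. The count between lines at 24 h was 361 without a batch term and 349 to 635 with a replicate left out, against 906 to 1112 at 6 h. The count between times was 1452 to 1708 in alpha-TC1 and 1383 to 2085 in beta-TC3 with a replicate left out. Of the gene results, 2 changed sign: Chgb in alpha-TC1 at 6 h without a batch term (−0.01) and Phf20l1, a reader of histone methylation whose probe sets disagree, in beta-TC3 at 24 h with the mean of all probe sets (−0.08). The causes were not tested. Another 208 gene results lost their call and 116 gained one, of 11853 computed. A further 256, called in neither fit, moved by more than the SD of the LBH-589 arrays. The 11853 count each gene in each comparison under each alternative. They include genes without a call in the main fit, which had none to lose. Deviations of same-numbered LBH-589 arrays from their group means had correlations between −0.28 and 0.41. They cannot decide whether replicate numbers pair the arrays, because batch was not removed and most same-numbered arrays were in different batches. With the replicate block, on LBH-589 and DMSO arrays alone, 985 and 655 genes were called between lines at 6 and 24 h, and 1864 and 1672 between times in alpha-TC1 and beta-TC3. Having 3 LBH-589 arrays a group and signals near background for genes at levels near 3 limits the precision.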
